A study of Mus musculus with 12 samples.

Results

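Bone-associated macrophages were compared with marrow macrophages taken from the same 3 mice at 24 months of age. The members were all genes measured in the 3 bone-associated libraries and the 3 marrow libraries of that age, paired by the mouse code in the sample names, which is 6 of the 12 libraries in the series. Of 45664 genes in the table, 16209 had enough counts to be tested. Both groups were C57BL/6 mice labelled male and 24 months old, with no genetic change or treatment given in the labels, and both were sorted as CD11b+, Ly6C-, F4/80+ cells. The remaining 6 libraries came from 3 mice of the same strain at 3 months, sorted alike from both sites, and entered the same model. No source used here says how the bone-associated fraction was freed from bone. The labels and the RNA disagree on sex: all 6 libraries at 24 months held 1482 to 15397 counts of Xist, the RNA of the inactive X chromosome, and 0 to 3 counts over 4 genes of the Y chromosome (Kdm5d, Uty, Ddx3y and Eif2s3y), whereas the libraries at 3 months held 0 Xist counts and 2638 to 8251 Y-linked counts. Sex is the same on both sides of the site comparison at 24 months, but in any comparison of the ages sex and age cannot be told apart.

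Macrophages are tissue phagocytes that depend on signalling through the receptor CSF1R, and their expression programme follows the tissue they live in. In marrow they surround developing red cells in erythroblastic islands, take up dying neutrophils and expelled nuclei, recycle iron from haem and send signals to haematopoietic stem cells. Macrophages on bone surfaces lie beside osteoblasts and share a precursor with osteoclasts, the multinucleated cells that resorb bone. The series asked, by its title, whether marrow macrophages differ by region in a way that bears on the ageing of haematopoietic stem cells.

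The 6 libraries at 24 months held 21987317 to 38317512 counts each. Bone-associated libraries had counts in 16150 ± 537 genes (SD, n = 3) and marrow libraries in 20195 ± 768. The first principal component of the 6 libraries took 56.9% of the variance and parted the sites. Levels below are CPM, the counts divided by a library total that is scaled by a TMM factor. They are always given for mouse 1, mouse 2 and mouse 3 in that order. Fold changes are bone-associated over marrow. The SE of a log2 fold change is its absolute value divided by the square root of the test's F statistic. It therefore restates the test and is not an independent measure of precision. It is least reliable where a site is near 0 counts, as for Fcrls below. A gene was called where the Benjamini-Hochberg adjusted p of edgeR's quasi-likelihood test, with the mouse as a block, was below 0.05. The TMM factors were 0.8208 to 0.8584 in bone-associated libraries and 1.089 to 1.105 in marrow. Scaling by library total alone moved the median of all genes by -0.4 on the log2 scale. Because these are sorted populations measured in bulk, a change in the share of some cells and a change in RNA per cell cannot be told apart, and this holds for every result below.

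At 24 months 4708 genes were called, 29% of those tested. Bone-associated cells were higher for 2502 genes (15.4%) and lower for 2206 (13.6%). These shares are the reference for every list count below, and a list near them is not set apart from genes at large. Among 10012 protein-coding genes with at least 5 CPM at a site, 23.6% were called higher and 16.8% lower (median log2 fold change 0.03). The all-gene shares include weakly expressed and non-coding genes, so they can overstate how far a list stands apart. Lists were chosen with earlier results of these data known, so their counts are not independent support. The median log2 fold change was 0.99 among all genes called higher and -1.36 among those called lower, against -0.23 over all genes tested. A change of at least 4-fold was seen for 460 called genes in the higher direction and 670 in the lower. Of the called genes, 4687 moved the same way in all 3 mice, where 60.1% of all genes tested did so. In 4393 of them the libraries of the 2 sites did not overlap, where 46.1% of all genes tested had no overlap (19.9% higher and 26.2% lower). Both counts come from the libraries that made the calls, so they describe the calls and are not separate support. The split between directions depended on scaling, since with library totals alone 23.7% of 5740 calls were higher, against 53.1% here.

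The highest named changes included 3 genes with 0 counts in every marrow library. Flrt3, a membrane protein of cell adhesion and axon guidance (chr2:140650914-140671469 in GRCm38), stood at 18.4, 66.1 and 245 CPM in bone-associated cells, at least 3400-fold higher than the limit that 3 counts over the marrow group allow. Gprc5a, a retinoic acid-induced orphan receptor (chr6:135065651-135084709), stood at 23.9, 47.9 and 15.8 CPM, at least 773-fold higher. Ednrb, an endothelin receptor, stood at 12.4, 4.91 and 30.1 CPM, at least 489-fold higher. All 3 were seen in each bone-associated library, and Flrt3 was highest in mouse 3. The Ednrb call was lost without young mouse 1 and with no low-count filter, with adjusted p from 2.42e-05 to 0.111 over the alternatives. Fcrls, an Fc receptor-like scavenger receptor, was at 14.3, 66.2 and 72.9 CPM in bone-associated cells against 0.173, 0 and 0 CPM in marrow (log2 fold change 9.46 ± 0.87 (SE), adjusted p = 0.000238). Emp1, an epithelial membrane protein, was at 1.63, 1.55 and 1.68 CPM in marrow and 82.8, 146 and 521 CPM in bone-associated cells (log2 fold change 6.87 ± 0.51 (SE), adjusted p = 0.000121). Both were below 2 CPM in every marrow library and far above it in every bone-associated one. Areg, an EGF receptor ligand, was at 11.4, 12.2 and 16.3 CPM in bone-associated cells against 0, 0.334 and 0 CPM in marrow (log2 fold change 7.76, adjusted p = 0.0104). Wnt11, a Wnt ligand, was at 0.657, 0.0418 and 0 CPM in marrow and 20.4, 31.8 and 13.7 CPM in bone-associated cells (log2 fold change 7.10, adjusted p = 0.00963), and its call was lost without mouse 2 and with no low-count filter (adjusted p 7.38e-05 to 0.0729 over the alternatives). Retnla, a secreted product of interleukin-4-activated macrophages, was at 9.76, 158 and 222 CPM in bone-associated cells against 0.381, 0.0418 and 0 CPM in marrow (log2 fold change 9.26, adjusted p = 0.0144). Its level in mouse 1 was far below the other 2 mice, and the call was lost without mouse 2 or mouse 3 and with no low-count filter (adjusted p 5.03e-08 to 0.0912).

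Among the genes with the lowest named changes, Slfn4, a Schlafen gene of myeloid cells (chr11:83175186-83190216), fell from 358, 349 and 393 CPM in marrow to 10.4, 10.5 and 8.91 CPM in bone-associated cells (log2 fold change -5.21 ± 0.30 (SE), adjusted p = 5.49e-05). Pde1b, a calcium-dependent phosphodiesterase, was at 29.2, 17.9 and 24.4 CPM in marrow and 0.261, 0 and 0 CPM in bone-associated cells (log2 fold change -8.29, adjusted p = 0.000512). In both, all marrow libraries lay above all bone-associated ones. Dennd6b, a Rab regulator, was at 1.68, 0 and 0 CPM in bone-associated cells against 26.6, 16.8 and 23.5 CPM in marrow (log2 fold change -6.51, adjusted p = 0.00364). Dlc1, a GTPase-activating protein, was at 23.4, 12.7 and 31.1 CPM in marrow and 0.0373, 0 and 2.99 CPM in bone-associated cells (log2 fold change -6.25, adjusted p = 0.00569). Lgals4, a galectin, was at 0, 0 and 1.21 CPM in bone-associated cells against 10.5, 10.9 and 8.65 CPM in marrow (log2 fold change -6.25, adjusted p = 0.0175), and its call was lost without mouse 1 or mouse 2 and in a fit of only the 6 libraries at 24 months (adjusted p 2.73e-08 to 0.0596 over the alternatives). The other 3, Epx, Prg2 and Ear6, encode eosinophil granule proteins and are described with the eosinophil markers.

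Of the macrophage markers, 10 of 20 tested members were called higher and 0 lower (median log2 fold change 0.50). The sum of the list was 7418, 5566 and 10100 CPM in marrow and 14830, 14900 and 18700 CPM in bone-associated cells, and the sites did not overlap. Csf1r, the receptor for CSF1 and interleukin-34, was at 646, 494 and 564 CPM in marrow and 4231, 3365 and 3688 CPM in bone-associated cells, 6.63-fold higher (log2 fold change 2.73 ± 0.12 (SE), adjusted p = 2.05e-05). Cd14, the co-receptor for bacterial lipopolysaccharide, was at 2436, 2445 and 2368 CPM in bone-associated cells against 95.6, 87.2 and 136 CPM in marrow (log2 fold change 4.53 ± 0.19 (SE), adjusted p = 2.05e-05). The lowest bone-associated library was above the highest marrow library for both. Adgre1, which encodes the F4/80 antigen used in the sort, was at 389, 329 and 378 CPM in marrow and 1058, 880.3 and 1165 CPM in bone-associated cells, 2.82-fold higher (adjusted p = 0.00014). Cd68, a lysosomal glycoprotein of phagocytes, was at 1332, 1270 and 1605 CPM in bone-associated cells against 544, 438 and 662 CPM in marrow (log2 fold change 1.37, adjusted p = 0.000288). Each of these also separated the sites fully, as the plot of levels by mouse shows. Itgam, which encodes CD11b, another antigen of the sort, was at 565, 759 and 526 CPM in marrow and 808, 889 and 872 CPM in bone-associated cells (log2 fold change 0.49, adjusted p = 0.0379). That difference was small, and the call was lost without mouse 1 or mouse 3, in the fit of only the 6 libraries, and on library size alone (adjusted p 0.00288 to 0.611 over the alternatives).

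Vcam1, an adhesion molecule of macrophages that hold haematopoietic cells, was at 412, 633 and 468 CPM in bone-associated cells against 178, 247 and 168 CPM in marrow (log2 fold change 1.35 ± 0.11 (SE), adjusted p = 0.000174). Mrc1, the mannose receptor CD206, was at 61.5, 68.4 and 46.4 CPM in marrow and 154, 284 and 251 CPM in bone-associated cells (log2 fold change 1.94, adjusted p = 0.000379). Cd163, the receptor for haemoglobin-haptoglobin complexes, was at 37.7, 55.5 and 89.8 CPM in bone-associated cells against 11.9, 26.7 and 12.3 CPM in marrow (log2 fold change 1.85, adjusted p = 0.00306). Bone-associated libraries were above marrow libraries in all 3 genes. Mertk, a receptor for apoptotic cells, was at 27.2, 22.7 and 26.9 CPM in marrow and 44, 32.6 and 38 CPM in bone-associated cells (log2 fold change 0.57, adjusted p = 0.0117), and its call was lost without mouse 1, in the fit of only the 6 libraries and on library size alone (adjusted p 0.000441 to 0.298). Other members of the list did not pass the test. Siglec1, the sialic acid receptor CD169 of marrow island macrophages, was at 19.7, 50.05 and 47.7 CPM in bone-associated cells against 20.9, 35.5 and 26.5 CPM in marrow (log2 fold change 0.42, adjusted p = 0.124), although it passed without mouse 1 (adjusted p 0.0443 to 0.923 over the alternatives). Spic, the transcription factor of iron-recycling macrophages, was at 109.8, 47.3 and 76.3 CPM in marrow and 110.1, 83 and 96.6 CPM in bone-associated cells (log2 fold change 0.38, adjusted p = 0.157), and Fcgr1, the high-affinity IgG receptor CD64, had an adjusted p of 0.459. The complement component genes C1qa, C1qb and C1qc had log2 fold changes of 0.14, 0.04 and 0.16, with adjusted p of 0.63, 0.876 and 0.447, and their libraries overlapped.

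**Figure D1:**
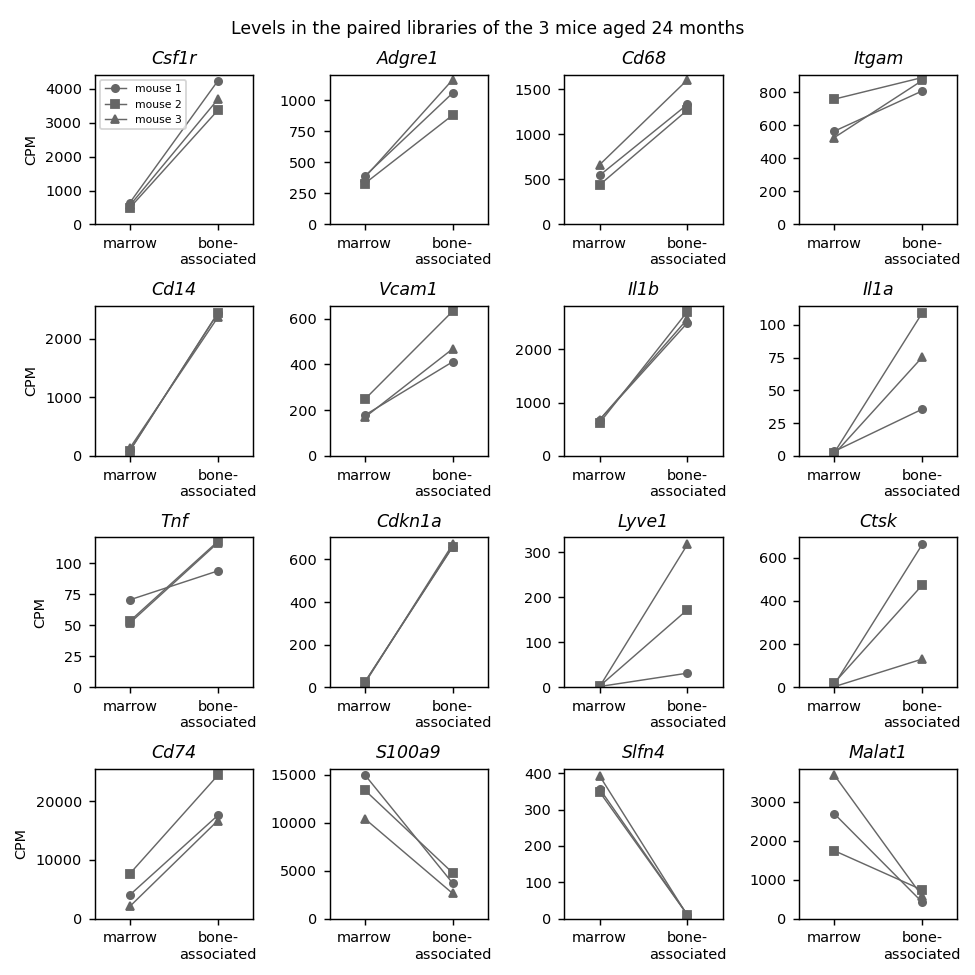
Levels (CPM, linear axes starting at 0) of 16 genes in the marrow and bone-associated libraries of the 3 mice aged 24 months, with a line joining the 2 libraries of a mouse. Csf1r, Cd14 and Cdkn1a rose and Slfn4 fell in every mouse with little spread, whereas Lyve1, Ctsk and Il1a rose in every mouse by amounts that differed between mice.

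Monocyte markers moved unequally. Of the Ly6C-low monocyte markers, 7 of 11 tested members were called higher and 1 lower (median log2 fold change 1.64). They included Ace, the angiotensin-converting enzyme, at 477, 367 and 407 CPM in bone-associated cells against 44.5, 47.5 and 19.2 CPM in marrow. Treml4, a receptor for dying cells, was at 103, 80.05 and 63.2 CPM in marrow and 591, 386 and 563 CPM in bone-associated cells, and Cx3cr1, the fractalkine receptor, at 782, 657 and 819 CPM in bone-associated cells against 219, 182 and 155 CPM in marrow. No library of one site reached the range of the other for these genes, whose log2 fold changes were 3.58, 2.65 and 2.03 (adjusted p 0.000156, 0.000126 and 0.000127). Of the Ly6C-high markers, 3 of 10 tested members were called higher and 1 lower (median log2 fold change -0.02), and library totals alone gave 3 higher and 5 lower. The called higher members were Fn1, which encodes fibronectin, F13a1, which encodes coagulation factor XIII, and Ccr2, the receptor for CCL2, with log2 fold changes of 4.70 ± 0.65, 4.56 ± 0.42 and 2.59 ± 0.35 (SE). Ly6c2, whose product the sort selected against, was at 221, 335 and 189 CPM in marrow and 138, 140 and 76 CPM in bone-associated cells (log2 fold change -1.08, adjusted p = 0.00337), while Ly6c1 was below 2 CPM in all libraries but 1 and was not called (adjusted p = 0.407).

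Of the macrophage transcription factors, 8 of 25 tested members were called higher and 1 lower (median log2 fold change 0.41). On library totals alone 7 were called higher and 7 lower (median 0.01), and the median was 0.15 without mouse 2. Bhlhe40, a repressor of Il10 in myeloid cells, was at 1036, 1012 and 1063 CPM in bone-associated cells against 107, 113 and 77 CPM in marrow (log2 fold change 3.41 ± 0.20 (SE), adjusted p = 5.74e-05). Id3, an inhibitor of E proteins needed by Kupffer cells, was at 25.6, 25 and 15.3 CPM in marrow and 187, 217 and 239.7 CPM in bone-associated cells (log2 fold change 3.31 ± 0.24 (SE), adjusted p = 0.00011). Cebpb, a factor of Ly6C-low monocytes and inflammatory genes, was at 2514, 2022 and 2179 CPM in bone-associated cells against 800, 608 and 546 CPM in marrow (log2 fold change 1.79, adjusted p = 0.000358). All bone-associated libraries were above all marrow libraries for these 3. Batf3, a factor of cross-presenting dendritic cells, fell from 103, 62.2 and 198 CPM in marrow to 15.9, 12 and 25.5 CPM (log2 fold change -2.68, adjusted p = 0.000183). Maf, Zeb2, Runx1 and Nr1h3 were not called.

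Inflammatory cytokine genes and targets of NF-kB, the transcription factor family of innate activation, formed a list of 27 tested genes. Of it, 21 of 27 tested members were called higher and 0 lower (median log2 fold change 1.12), against 15.4% higher and 13.6% lower over all genes tested. Chemokines, which guide leukocytes, had 15 of 20 called higher and 1 lower (median 2.32). A core of the NF-kB site (GGGA, any base, TT, any base and CC) was sought on both strands. The search covered the 250 bases before each start of a gene in the RefSeq promoter table (GRCm38.p6), and a match at any start counted. The pattern was found in 6 of 21 matched NF-kB list members (28.6%) and 4 of 14 matched chemokines (28.6%), against 1.37% of 10983 matched genes tested. The first list names NF-kB targets, so its share was likely to be high whatever these data held. Among members called higher the shares were 4 of 18 (22.2%) and, for chemokines, 4 of 11 (36.4%). The chemokines with the pattern were Cxcl1, Cxcl2, Cxcl3 and Cxcl10. The first 3 are similar in sequence, so they are not separate instances. Of the 6 NF-kB list members with the pattern, Il6 and Tnip1 were not called, so the pattern was not held only by genes that rose. The 4 promoters below show where the pattern (capitals) lies in 3 chemokine genes that lie close together on chromosome 5 and in Nfkbia, which encodes the NF-kB inhibitor. Each is the 120 bases before the start, 5′ to 3′ on the gene's strand, at chr5:90891125-90891244 (plus strand), chr5:90903779-90903898 (plus strand), chr5:90785981-90786100 (plus strand) and chr12:55492648-55492767 (minus strand). A match describes letters and is not evidence of binding here.
Cxcl1: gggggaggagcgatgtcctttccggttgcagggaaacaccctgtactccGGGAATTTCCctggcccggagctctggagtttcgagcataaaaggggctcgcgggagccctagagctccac
Cxcl2: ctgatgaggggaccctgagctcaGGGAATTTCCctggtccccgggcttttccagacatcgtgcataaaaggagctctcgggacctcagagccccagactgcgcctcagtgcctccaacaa
Cxcl3: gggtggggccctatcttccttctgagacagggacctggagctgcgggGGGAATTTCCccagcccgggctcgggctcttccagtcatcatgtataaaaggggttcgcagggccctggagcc
Nfkbia: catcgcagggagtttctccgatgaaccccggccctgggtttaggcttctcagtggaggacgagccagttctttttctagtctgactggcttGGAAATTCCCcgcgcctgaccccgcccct

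The genes with these promoters differed widely in the size of their change. Cxcl1, a neutrophil attractant, was at 0.173, 0.752 and 0.716 CPM in marrow and 18.8, 14.8 and 50.6 CPM in bone-associated cells (log2 fold change 5.66 ± 0.63 (SE), adjusted p = 0.000519). Cxcl3, a close relative, was at 5.81, 6.92 and 56.7 CPM in bone-associated cells against 0.865, 0.334 and 1.12 CPM in marrow (log2 fold change 4.27, adjusted p = 0.00246). Nfkbia was at 587, 628 and 756 CPM in marrow and 1673, 1945 and 1928 CPM in bone-associated cells, 2.82-fold higher (adjusted p = 0.000283). Bone-associated libraries were above marrow libraries for all of them. Cxcl2 was at 132, 277 and 277 CPM in bone-associated cells against 105, 120 and 123 CPM in marrow (log2 fold change 0.91, adjusted p = 0.017), and its call was lost without mouse 2 or mouse 3 and on library size alone (adjusted p 0.000482 to 0.107 over the alternatives). Cxcl1, Cxcl2 and Cxcl3 are similar in sequence, and how reads were divided between them is not stated.

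Among other chemokines, Ccl7 and Ccl2, both ligands of CCR2, were higher. Ccl7 was at 0.657, 0.71 and 0.685 CPM in marrow and 32.3, 77.9 and 153 CPM in bone-associated cells (log2 fold change 6.78 ± 0.68 (SE), adjusted p = 0.000347). Ccl2 was at 34.6, 73.2 and 195 CPM in bone-associated cells against 2.49, 3.84 and 2.83 CPM in marrow (log2 fold change 4.72, adjusted p = 0.000463). Cxcl16, a membrane-bound chemokine and scavenger receptor, was at 21.1, 59.5 and 19.8 CPM in marrow and 288, 327 and 252 CPM in bone-associated cells (log2 fold change 3.30, adjusted p = 0.000174). Each of these stood clear of marrow in every mouse. Pf4 (Cxcl4), which in marrow is made by megakaryocytes and acts on stem cell quiescence, was at 42, 81.1 and 314 CPM in bone-associated cells against 5.81, 7.73 and 6.1 CPM in marrow (log2 fold change 3.95, adjusted p = 0.00118), highest in mouse 3. The other megakaryocyte markers were not called, and that list summed to 64.4, 114 and 50.5 CPM in marrow and 83.2, 115 and 369 CPM in bone-associated cells with Pf4 included. Cxcl12, the stem cell retention factor made mainly by stromal cells, was at 19.8, 12 and 8.9 CPM in marrow and 99.9, 18.8 and 147 CPM in bone-associated cells (log2 fold change 2.35, adjusted p = 0.0302), and its call was lost without mouse 1 or mouse 3, or young mouse 1 or 2, in the fit of only the 6 libraries and with no low-count filter (adjusted p 0.00555 to 0.186). Ccl3 was the member called lower, at 143, 211 and 178 CPM in bone-associated cells against 317, 337 and 367 CPM in marrow (log2 fold change -0.95, adjusted p = 0.00443).

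The interleukin-1 system split. Of its list, 7 of 23 tested members were called higher and 5 lower (median log2 fold change -0.01). The ligands Il1b, at 675, 616 and 676 CPM in marrow and 2495, 2707 and 2567 CPM in bone-associated cells, and Il1a, at 35.7, 109 and 75.3 CPM in bone-associated cells against 3.46, 2.51 and 1.43 CPM in marrow, were 3.95-fold and 28.4-fold higher (adjusted p 0.000288 and 0.000433). Il1rn, the receptor antagonist that blocks both, was at 69, 75.4 and 47.5 CPM in marrow and 383, 414 and 234 CPM in bone-associated cells (log2 fold change 2.41 ± 0.13 (SE), adjusted p = 4.26e-05). Nlrp3, the sensor of the inflammasome, was at 79.8, 127 and 73.2 CPM in bone-associated cells against 31.4, 24.3 and 21.3 CPM in marrow (log2 fold change 1.84, adjusted p = 0.000988). In contrast to these, which separated the sites in every mouse, the adaptor Pycard fell from 243, 238 and 450.4 CPM to 89.5, 70.4 and 111 CPM (log2 fold change -1.74 ± 0.17 (SE), adjusted p = 0.000275). Aim2, the sensor of cytosolic DNA, was at 60.3, 62.8 and 73.3 CPM in marrow and 19.97, 23.5 and 29.6 CPM in bone-associated cells (log2 fold change -1.44, adjusted p = 0.00038). The 5 members called lower became 3 without mouse 1, 2 or 3 or young mouse 2, and on library totals alone 6 were higher and 8 lower. Casp1, the protease that cleaves pro-interleukin-1β, was at 94.8, 82.3 and 121 CPM in bone-associated cells against 120.5, 105 and 142 CPM in marrow (adjusted p = 0.204, 0.015 to 0.371 over the alternatives), and Il1r1, the signalling receptor, had an adjusted p of 0.217.

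Further members of the NF-kB list rose with small spread between mice. Tnfaip3, the ubiquitin-editing inhibitor A20, was at 125, 161 and 127 CPM in marrow and 648, 761 and 514 CPM in bone-associated cells (log2 fold change 2.21 ± 0.12 (SE), adjusted p = 4.09e-05). Ptgs2, the inducible cyclooxygenase, was at 282, 366 and 218 CPM in bone-associated cells against 59.5, 73 and 36.7 CPM in marrow (log2 fold change 2.38, adjusted p = 8.97e-05). Socs3, the inhibitor of interleukin-6 signalling, was at 110.1, 119 and 181 CPM in marrow and 666, 693 and 721 CPM in bone-associated cells (log2 fold change 2.38, adjusted p = 0.000179). Marrow libraries were below bone-associated libraries throughout. Tnf was at 93.9, 118 and 117 CPM in bone-associated cells against 70.6, 53.5 and 51.9 CPM in marrow (log2 fold change 0.91, adjusted p = 0.0211), and that call was lost without mouse 2 or mouse 3 and on library size alone (adjusted p 0.00159 to 0.122). Il6 was at 7.65, 22.6 and 12.6 CPM in marrow and 11.6, 26.3 and 10.9 CPM in bone-associated cells and did not pass the test (adjusted p = 0.763).

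Receptors of innate sensing were mixed. Of the pattern recognition receptors, 8 of 19 tested members were called higher and 3 lower (median log2 fold change 0.08). Besides Cd14, Tlr2, the receptor for bacterial lipopeptides, was at 1932, 1536 and 1860 CPM in bone-associated cells against 182, 198 and 249.6 CPM in marrow (log2 fold change 3.09 ± 0.15 (SE), adjusted p = 2.53e-05). Clec7a (dectin-1), a receptor for fungal β-glucan, and Clec4e (mincle), a receptor for mycobacterial glycolipid, had log2 fold changes of 2.39 ± 0.20 and 2.20 ± 0.16 (SE) and adjusted p of 0.000166 and 0.000104. The 3 calls in the lower direction became 1 without mouse 1 or without young mouse 2. Of the 7 Fc receptors tested, 4 were called higher and 1 lower. The one that fell was Fcgr4, an activating receptor for IgG2, at 1886, 1000 and 3155 CPM in marrow and 811, 444 and 1127 CPM in bone-associated cells (log2 fold change -1.29 ± 0.15 (SE), adjusted p = 0.000698), lower within each mouse although the sites overlapped. Fcgrt, the neonatal Fc receptor that recycles IgG, was at 312, 412 and 533 CPM in bone-associated cells against 119, 102 and 98.6 CPM in marrow (log2 fold change 1.95, adjusted p = 0.00048), and Fcer1g, the shared signalling chain, was not called (adjusted p = 0.426, 0.0239 to 0.81 over the alternatives).

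Complement genes had 9 of 19 called higher and 0 lower (median 1.00, or 0.56 without mouse 3). Vsig4, a complement receptor of resident macrophages, was at 7.51, 7.44 and 6.69 CPM in marrow and 21.9, 74.3 and 136 CPM in bone-associated cells (log2 fold change 3.09, adjusted p = 0.00231), and the anaphylatoxin receptors C3ar1 and C5ar1 had log2 fold changes of 3.07 ± 0.42 and 1.97 ± 0.17 (SE, adjusted p 0.00132 and 0.000194). Of the receptors for cytokines and growth factors, 16 of 25 tested members were called higher and 0 lower (median log2 fold change 0.91). Tnfrsf1b, the TNF receptor 2, was at 1914, 1700 and 1525 CPM in bone-associated cells against 261, 258 and 212 CPM in marrow (log2 fold change 2.81 ± 0.12 (SE), adjusted p = 2.05e-05). Il13ra1, a subunit of the interleukin-13 receptor, was at 26.7, 52.4 and 29.8 CPM in marrow and 229, 219 and 249.7 CPM in bone-associated cells (log2 fold change 2.75, adjusted p = 0.000165). Ifngr1, the ligand-binding chain for interferon-γ, was at 879, 677 and 874 CPM in bone-associated cells against 307, 272 and 260.4 CPM in marrow (log2 fold change 1.53, adjusted p = 0.00014). All 3 were higher in each bone-associated library than in any marrow library.

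Chemokine receptors had 9 of 15 called higher and 2 lower (median 1.34). Ccr7, which guides dendritic cells and lymphocytes to lymph nodes, was at 31.4, 56.2 and 11.6 CPM in marrow and 375, 565 and 137 CPM in bone-associated cells (log2 fold change 3.49 ± 0.13 (SE), adjusted p = 1.56e-05). Ccrl2, which presents chemerin without signalling, was at 486, 440.4 and 487 CPM in bone-associated cells against 57.6, 62.3 and 35.6 CPM in marrow (log2 fold change 3.22, adjusted p = 7.54e-05). Both were higher without overlap. Of the 2 called lower, Cxcr2, the main receptor of mature neutrophils, was at 146, 231 and 141 CPM in marrow and 69.5, 140.1 and 93.9 CPM in bone-associated cells (log2 fold change -0.79, adjusted p = 0.00626).

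Immediate early genes, which respond within minutes to signals at the cell surface, had 15 of 25 called higher and 2 lower (median 1.19). The orphan nuclear receptors of the NR4A family led. Nr4a2 (chr2:57106830-57124003) was at 358, 352 and 222 CPM in bone-associated cells against 8.41, 5.43 and 3.61 CPM in marrow (log2 fold change 5.78 ± 0.19 (SE), adjusted p = 1.56e-05), and Nr4a3 at 1.83, 2.63 and 2.12 CPM in marrow and 53.2, 65.9 and 37 CPM in bone-associated cells (log2 fold change 4.54, adjusted p = 5.03e-05). Nr4a1 was at 2808, 2620 and 2658 CPM in bone-associated cells against 771, 506 and 684 CPM in marrow (log2 fold change 2.06, adjusted p = 7.69e-05). No library of one site fell within the range of the other for these 3. Within the same list the 2 founding members of AP-1 went other ways: Fos was at 1740, 1158 and 2359 CPM in marrow and 1978, 2093 and 2744 CPM in bone-associated cells and not called (adjusted p = 0.07, 0.0261 to 0.937 over the alternatives), and Jun was at 558, 718 and 1168 CPM in bone-associated cells against 2072, 1644 and 1585 CPM in marrow (log2 fold change -1.18, adjusted p = 0.0122). The Jun call was lost without mouse 1 (adjusted p 9.58e-06 to 0.0539 over the alternatives). The pattern TGACGTCA, the cAMP response element, was in 3 of 21 matched promoters of the list (14.3%, against 2.94% of all), namely Btg2, Dusp1 and Maff, and TGANTCA, the AP-1 site, in 0 of 21 (against 5.77%).

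Heat shock genes had 10 of 13 called higher and 1 lower (median 0.99). Hsph1, a large heat shock protein, was at 36.3, 47.2 and 53.2 CPM in marrow and 834, 385 and 530.1 CPM in bone-associated cells (log2 fold change 3.61 ± 0.30 (SE), adjusted p = 0.000174). Bag3, a co-chaperone of selective autophagy, was at 89.6, 101 and 115 CPM in bone-associated cells against 18.1, 13.3 and 18.2 CPM in marrow (log2 fold change 2.63, adjusted p = 0.000106). Hspd1, the mitochondrial chaperonin, was at 94.4, 105 and 95.8 CPM in marrow and 356, 346 and 314 CPM in bone-associated cells (log2 fold change 1.78, adjusted p = 0.000161). All libraries of bone-associated cells were higher. The strongly inducible Hspa1a was at 515, 683 and 1790 CPM in bone-associated cells against 689, 567 and 518 CPM in marrow and did not pass the test (adjusted p = 0.316). In the unfolded protein response of the endoplasmic reticulum 9 of 19 tested members were called higher and 0 lower (median log2 fold change 0.45). Its main chaperone Hspa5 (BiP) was at 929, 993 and 1345 CPM in marrow and 4401, 3271 and 3499 CPM in bone-associated cells (log2 fold change 1.78 ± 0.16 (SE), adjusted p = 0.000239), Herpud1 had a log2 fold change of 1.22 ± 0.11 and Edem1 of 1.22 ± 0.14 (SE).

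Of the senescence and p53 list, 11 of 19 tested members were called higher and 3 lower (median log2 fold change 0.60). Cdkn1a, the p21 inhibitor of cyclin-dependent kinases (chr17:29090976-29100727), was at 660.5, 659 and 671 CPM in bone-associated cells against 23.6, 23.1 and 18.1 CPM in marrow, 30.9-fold higher (log2 fold change 4.95 ± 0.18 (SE), adjusted p = 1.56e-05). The 3 mice lay close together at each site, so this was among the steadiest differences named here. Gdf15, a stress cytokine, was at 9.41, 7.06 and 8.34 CPM in marrow and 32.6, 52.8 and 47.1 CPM in bone-associated cells, 5.26-fold higher (adjusted p = 0.000514). Mdm2, the p53 ligase, was at 202, 174 and 197 CPM in bone-associated cells against 84.8, 93.1 and 96.3 CPM in marrow (log2 fold change 1.06, adjusted p = 0.000505). Cdkn1b, the p27 inhibitor, was at 32.8, 24.6 and 31.7 CPM in marrow and 13.9, 10.8 and 10.7 CPM in bone-associated cells (log2 fold change -1.33, adjusted p = 0.00449). Cdkn2a, the p16 and p19 locus commonly used as a mark of senescence, was at 0.522, 0 and 0.413 CPM in bone-associated cells against 2.53, 1.21 and 2.49 CPM in marrow and did not pass the test (adjusted p = 0.148, 0.0279 to 0.264 over the alternatives). The 3 members called lower became 1 without mouse 1 or without young mouse 2, and the 11 called higher became 7 on library size alone.

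**Figure D2:**
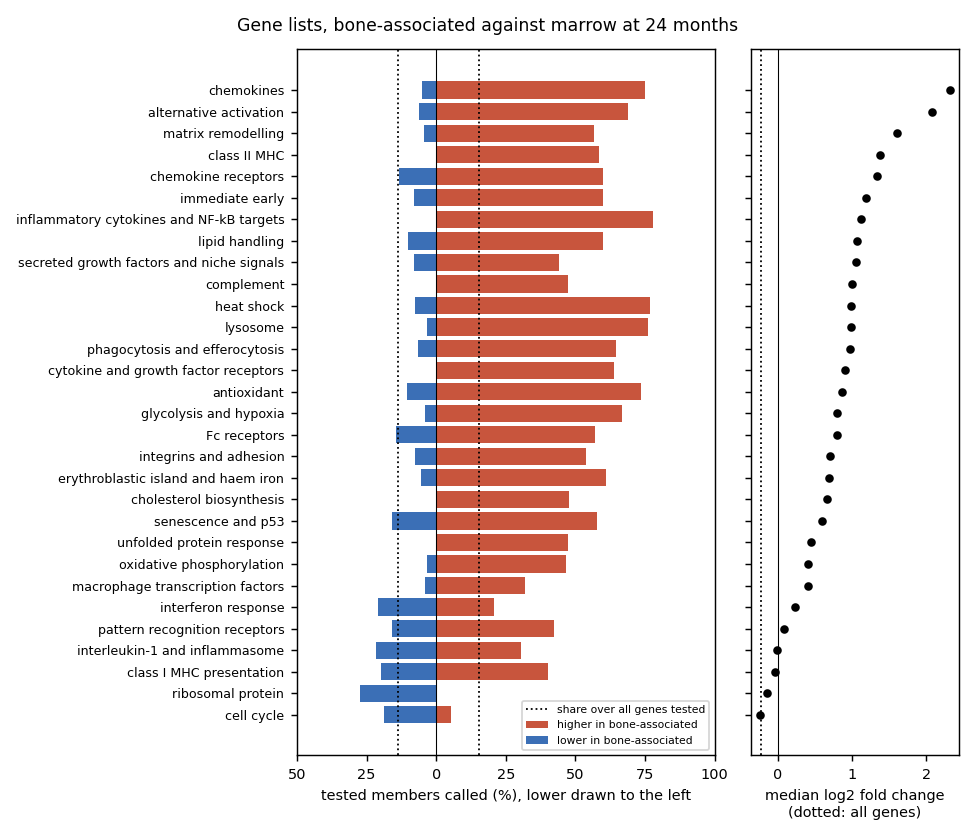
Share of the tested members of 30 gene lists called higher (red, to the right) or lower (blue, drawn to the left) in bone-associated cells at 24 months, in percent, with dotted lines at the shares over all genes tested (15.4% and 13.6%), and at right the median log2 fold change of each list, dotted at the median of all genes (-0.23). Chemokines and alternative activation have the highest medians, and the ribosomal protein list has no member called higher. Protein-coding genes with at least 5 CPM at a site, not drawn, had shares of 23.6% higher and 16.8% lower.

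The lysosome is the compartment in which engulfed material is broken down. Of its list, 22 of 29 tested members were called higher and 1 lower (median log2 fold change 0.99). The pattern TCACGTG, the core of the CLEAR element of lysosomal promoters, was in 7 of 21 matched lysosome genes (33.3%) and in 5.47% of all 10983, both strands searched over 250 bases. The element is known from such promoters, so that share does not bear on the site comparison. Among members called higher the pattern was in 5 of 17 (29.4%). It was present also in Ctsd and Mcoln1, which were not called. Of the promoters with the pattern, 3 are shown with it in capitals, since the number and place of the copies differ: 4 separate copies before Lamp1, 1 before Lgmn and, before Ctsa, a run read on both strands as 2 overlapping copies. They are the 120 bases before a start listed for the gene, 5′ to 3′ on its strand, from RefSeq (GRCm38.p6) at chr8:13159041-13159160 (plus strand), chr12:102439093-102439212 (minus strand) and chr2:164833653-164833772 (plus strand). The Lgmn stretch lies inside the gene as GENCODE M21 places it (chr12:102394084-102439813), so it precedes an inner start and not the outermost one.
Lamp1: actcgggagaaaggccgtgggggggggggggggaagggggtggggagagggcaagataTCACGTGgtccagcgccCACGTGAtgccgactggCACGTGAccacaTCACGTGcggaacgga
Lgmn: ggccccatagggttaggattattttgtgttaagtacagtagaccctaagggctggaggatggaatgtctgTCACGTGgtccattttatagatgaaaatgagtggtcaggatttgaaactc
Ctsa: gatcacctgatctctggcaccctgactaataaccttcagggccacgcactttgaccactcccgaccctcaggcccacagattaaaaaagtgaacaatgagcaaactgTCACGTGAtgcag

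Lgmn, the protease legumain, was at 185, 157 and 221 CPM in marrow and 819.6, 697 and 788 CPM in bone-associated cells (log2 fold change 2.04 ± 0.14 (SE), adjusted p = 8.97e-05). Lamp1, a membrane protein that coats the lysosome, was at 1630, 1307 and 1919 CPM in bone-associated cells against 659.7, 641 and 764 CPM in marrow (log2 fold change 1.22, adjusted p = 0.000204). Ctsa, the protective protein cathepsin A, was at 926, 772 and 1303 CPM in marrow and 1961, 1585 and 2336 CPM in bone-associated cells (log2 fold change 0.99, adjusted p = 0.000787). The number of copies of the pattern did not order these 3 changes. Gla, the α-galactosidase, was at 107, 110 and 114 CPM in bone-associated cells against 20.2, 27.2 and 25.2 CPM in marrow (log2 fold change 2.20, adjusted p = 9.61e-05). Sqstm1 (p62), which brings cargo to autophagy, was at 466, 438 and 458 CPM in marrow and 2203, 1837 and 2042 CPM in bone-associated cells (log2 fold change 2.15, adjusted p = 4.37e-05). Each of these 5 genes was higher in every bone-associated library. Tfeb, which encodes a factor that binds the CLEAR element, had an adjusted p of 0.323 (0.00836 to 0.676 over the alternatives, called lower on library totals alone) and a log2 fold change of -0.17.

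Phagocytosis and efferocytosis, the uptake of dying cells, had 20 of 31 called higher and 2 lower (median 0.97). Among bridging molecules that coat dying cells, Thbs1, which encodes thrombospondin 1, was at 1426, 1231 and 344 CPM in bone-associated cells against 164, 65.1 and 29.1 CPM in marrow (log2 fold change 3.64 ± 0.23 (SE), adjusted p = 7.69e-05). Gas6, the ligand of MERTK and AXL, was at 6.51, 2.76 and 2.68 CPM in marrow and 60.03, 102 and 159 CPM in bone-associated cells (log2 fold change 4.75, adjusted p = 0.00038). Among receptors, Cd36 was at 654, 594 and 1066 CPM in bone-associated cells against 59.7, 43.9 and 24 CPM in marrow (log2 fold change 4.21, adjusted p = 0.000255) and Msr1, the scavenger receptor A, at 3.43, 8.61 and 2.49 CPM in marrow and 51.8, 80.3 and 125 CPM in bone-associated cells (log2 fold change 4.22, adjusted p = 0.000362). All 4 separated the sites in every mouse, and in bone-associated cells Thbs1 was lowest in mouse 3, where Cd36 and Msr1 were highest.

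Lipid handling genes had 12 of 20 called higher and 2 lower (median 1.07). Apoe, which carries cholesterol out of macrophages, was at 9623, 7929 and 9793 CPM in bone-associated cells against 3478, 2194 and 2445 CPM in marrow (log2 fold change 1.77 ± 0.15 (SE), adjusted p = 0.000168). Plin2, which coats lipid droplets, was at 186, 216 and 282 CPM in marrow and 692, 658 and 917 CPM in bone-associated cells (log2 fold change 1.73, adjusted p = 6.84e-05). Trem2, a lipid-sensing receptor, was at 41.5, 57.8 and 169 CPM in bone-associated cells against 15.3, 12.8 and 12.7 CPM in marrow (log2 fold change 2.44, adjusted p = 0.00304). Higher levels in bone-associated cells were seen in all 3 mice for each. In cholesterol biosynthesis 10 of 21 tested members were called higher and 0 lower (median log2 fold change 0.66), and with library totals alone 4 were called higher. Cyp51, a sterol demethylase, was at 23.9, 30.6 and 15.3 CPM in marrow and 75.3, 77 and 80.2 CPM in bone-associated cells (log2 fold change 1.79, adjusted p = 0.00138).

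Antioxidant genes had 14 of 19 called higher and 2 lower (median 0.87). Txnrd1, which encodes thioredoxin reductase, was at 429, 333 and 282 CPM in bone-associated cells against 76.4, 68.3 and 61.5 CPM in marrow (log2 fold change 2.32 ± 0.17 (SE), adjusted p = 0.000106). Sod2, the mitochondrial superoxide dismutase, was at 59.9, 59.9 and 57.3 CPM in marrow and 223, 212 and 205 CPM in bone-associated cells (log2 fold change 1.85, adjusted p = 7.69e-05), and Srxn1, which repairs peroxiredoxins, had a log2 fold change of 2.90 ± 0.21 (SE, adjusted p = 0.000121). None of their libraries overlapped between sites. The antioxidant response pattern TGACNNNGC was in 4 of 15 matched promoters of the list (26.7%) and in 14.1% of all. For erythroblastic islands and haem iron, 11 of 18 tested members were called higher and 1 lower (median log2 fold change 0.69), with 6 called higher on library totals alone. Trf, which encodes transferrin, was at 51.5, 49.96 and 41.8 CPM in bone-associated cells against 11.5, 11.8 and 6.88 CPM in marrow (log2 fold change 2.28 ± 0.16 (SE), adjusted p = 9.73e-05). Tfrc, its receptor, was at 48.4, 45.7 and 30.1 CPM in marrow and 112, 96 and 79.5 CPM in bone-associated cells (log2 fold change 1.23, adjusted p = 0.000639). Hmox1, the haem-degrading oxygenase, was at 574, 388 and 618 CPM in bone-associated cells against 320.5, 165 and 186 CPM in marrow (log2 fold change 1.27, adjusted p = 0.00127). Slc40a1, the iron exporter ferroportin, was at 267, 314 and 191 CPM in marrow and 379, 502 and 418 CPM in bone-associated cells (log2 fold change 0.77, adjusted p = 0.00519). The Slc40a1 call was lost on library totals alone (adjusted p 1.16e-06 to 0.0673 over the alternatives). Tfrc is also high in erythroid cells, whose markers moved the same way, as described below.

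Genes of alternative activation, the state induced by interleukin-4 and interleukin-13, had 11 of 16 called higher and 1 lower (median 2.08). Lyve1, a hyaluronan receptor of perivascular macrophages and lymphatic endothelium, was at 31.4, 172 and 317 CPM in bone-associated cells against 1.66, 2.34 and 1.18 CPM in marrow (log2 fold change 6.18 ± 0.66 (SE), adjusted p = 0.00046). Folr2, a folate receptor of resident macrophages, was at 1.94, 1.96 and 2.71 CPM in marrow and 16, 79.8 and 161 CPM in bone-associated cells (log2 fold change 4.82, adjusted p = 0.000519). Ccl24, an eosinophil attractant, was at 3.65, 8.96 and 14.5 CPM in bone-associated cells against 0.104, 0.209 and 0.249 CPM in marrow (log2 fold change 5.46, adjusted p = 0.00222). The sites did not overlap for any of them, and for Lyve1 mouse 1 was the lowest and mouse 3 the highest. Arg1, arginase 1, was at 1.28, 0.877 and 1.15 CPM in marrow and 0.0373, 48.3 and 4.17 CPM in bone-associated cells and not called (adjusted p = 0.527, 0.0247 to 0.819 over the alternatives). Cd200r1, an inhibitory receptor, fell from 86.7, 72.2 and 150.2 CPM in marrow to 19.5, 13.7 and 48.9 CPM (log2 fold change -2.05 ± 0.17 (SE), adjusted p = 0.000183).

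Matrix genes had 13 of 23 called higher and 1 lower (median 1.61), where 1 called lower became 3 without young mouse 2. Mmp14, a membrane-bound collagenase, was at 235, 212 and 134 CPM in bone-associated cells against 13.5, 32 and 14.2 CPM in marrow (log2 fold change 3.36 ± 0.25 (SE), adjusted p = 0.000126). F13a1 was at 20.4, 22.6 and 20.3 CPM in marrow and 274, 393 and 1168 CPM in bone-associated cells (log2 fold change 4.56, adjusted p = 0.000258). Of integrins and adhesion molecules, 14 of 26 tested members were called higher and 2 lower (median log2 fold change 0.70). Itga5, the fibronectin receptor chain, was at 306, 294 and 215 CPM in bone-associated cells against 34.4, 42.7 and 45.9 CPM in marrow (log2 fold change 2.72, adjusted p = 0.000244). Cd44, the hyaluronan receptor, was at 211, 277 and 169 CPM in marrow and 695, 729 and 789.6 CPM in bone-associated cells (log2 fold change 1.78, adjusted p = 0.000283). For each of these 4 genes, marrow was lower in all mice.

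Of secreted growth factors and niche signals, 11 of 25 tested members were called higher and 2 lower (median log2 fold change 1.05). Spp1 (osteopontin), a matrix protein that restrains haematopoietic stem cells, was at 145, 206 and 144 CPM in bone-associated cells against 17.6, 39.5 and 15.3 CPM in marrow (log2 fold change 2.89 ± 0.25 (SE), adjusted p = 0.000202). Igf1, an insulin-like growth factor, was at 22.9, 30.8 and 21.5 CPM in marrow and 45.6, 83.4 and 62.7 CPM in bone-associated cells (log2 fold change 1.32, adjusted p = 0.000493). Hbegf, an EGF receptor ligand, was at 12.7, 13.2 and 9.51 CPM in bone-associated cells against 0.831, 0.919 and 0.653 CPM in marrow (log2 fold change 3.87, adjusted p = 0.000362). Marrow and bone-associated libraries were apart for all 3. Tgfb1, which holds stem cells in quiescence, was at 129, 102 and 143 CPM in marrow and 199.9, 204 and 211 CPM in bone-associated cells (log2 fold change 0.73, adjusted p = 0.00564), a call that was lost on library totals alone (adjusted p 2.34e-05 to 0.103 over the alternatives). Osm, a macrophage cytokine that promotes bone formation, was at 197, 340.4 and 297 CPM in bone-associated cells against 197, 312 and 195 CPM in marrow and did not pass the test (adjusted p = 0.339).

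Class II MHC genes, which present peptides to CD4 T cells, had 7 of 12 called higher and 0 lower (median 1.38). Cd74, the invariant chain, was at 4054, 7666 and 2104 CPM in marrow and 17570, 24380 and 16680 CPM in bone-associated cells (log2 fold change 2.25 ± 0.26 (SE), adjusted p = 0.000642). H2-Aa was at 4292, 6175 and 4043 CPM in bone-associated cells against 1216, 2370 and 717 CPM in marrow (log2 fold change 1.90, adjusted p = 0.000956), and H2-DMb1, which loads peptide, had a log2 fold change of 1.66 ± 0.17 (SE, adjusted p = 0.00035). The count called higher was 7 under every alternative, and Ciita, the class II transactivator, was not called (adjusted p = 0.77). B cells and dendritic cells also express these genes: B cell markers summed to 1522, 2851 and 754 CPM in marrow and 668, 1320 and 708 CPM in bone-associated cells, and conventional dendritic cell markers to 645, 731 and 899.6 and 1184, 1460 and 971 CPM. Their part in the class II values was not tested. In class I presentation 6 of 15 tested members were called higher and 3 lower (median log2 fold change -0.04). Tapbp (tapasin) rose by 1.33 ± 0.11 (SE, log2, adjusted p = 0.000174), whereas Nlrc5, the class I transactivator, was at 58.6, 90.6 and 64.1 CPM in marrow and 20.8, 32 and 15.4 CPM in bone-associated cells (log2 fold change -1.69, adjusted p = 0.00177) and the immunoproteasome subunit Psmb9 at 93.9, 147 and 123 CPM in bone-associated cells against 189, 236 and 206 CPM in marrow (log2 fold change -0.81, adjusted p = 0.00312). The 6 called higher became 3 without mouse 1, and library totals alone turned the balance to 2 higher and 7 lower (median -0.44). Class I genes are near-identical in parts, so their single counts are uncertain.

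Both lists of energy metabolism held more higher than lower calls. In glycolysis and hypoxia 16 of 24 tested members were called higher and 1 lower (median log2 fold change 0.80), with 8 called higher on library totals alone. Slc2a1, the glucose transporter GLUT1, was at 25.6, 37.3 and 29.2 CPM in marrow and 128, 173 and 164 CPM in bone-associated cells (log2 fold change 2.34 ± 0.15 (SE), adjusted p = 7.52e-05). Slc16a3, the lactate exporter MCT4, was at 627, 547 and 549 CPM in bone-associated cells against 125, 157 and 99 CPM in marrow (log2 fold change 2.20, adjusted p = 9.73e-05). Vegfa, the vascular growth factor induced by hypoxia, was at 26.7, 25.2 and 38.3 CPM in marrow and 169.9, 167 and 122 CPM in bone-associated cells (log2 fold change 2.36, adjusted p = 0.000512). All 3 were higher in every bone-associated library. In oxidative phosphorylation 14 of 30 tested members were called higher and 1 lower (median log2 fold change 0.41), with 7 called higher and 5 lower on library totals alone (median 0.01). Atp5b, a subunit of ATP synthase, was at 1573, 1372 and 1435 CPM in bone-associated cells against 662, 852 and 625 CPM in marrow (log2 fold change 1.05, adjusted p = 0.0011), and Uqcrfs1, the iron-sulfur subunit of complex III, had a log2 fold change of 1.04 ± 0.13 (SE).

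Of ribosomal protein genes, 0 of 33 tested members were called higher and 9 lower (median log2 fold change -0.14), against 13.6% lower and a median of -0.23 over all genes tested. Among protein-coding genes with at least 5 CPM at a site, 16.8% were lower and the median was 0.03. The 9 ribosomal calls became 3 without mouse 1, 4 without mouse 3 and 26 on library totals alone, so the count depended on the setting. Rps27a was at 138, 128 and 133 CPM in marrow and 78.7, 87.1 and 69.4 CPM in bone-associated cells (log2 fold change -0.77, adjusted p = 0.00523). Rpl32 was at 195, 236 and 202 CPM in bone-associated cells against 354, 326 and 328 CPM in marrow (log2 fold change -0.68, adjusted p = 0.00731). These changes were under 2-fold, without overlap between sites. Cell cycle genes had 2 of 37 called higher and 7 lower, against 15.4% and 13.6% over all genes tested. Their median of -0.24 was close to that of all genes but below the 0.03 of protein-coding genes with at least 5 CPM at a site. There were 15 lower on library totals alone, and 0 higher without mouse 1 or mouse 2 and 1 without mouse 3, where the median was 0.05. Ccnd2 (cyclin D2) was at 494, 437 and 980.3 CPM in marrow and 262, 209 and 267 CPM in bone-associated cells (log2 fold change -1.28, adjusted p = 0.00194) and Cdk1, the mitotic kinase, at 33, 29.8 and 13.6 CPM in bone-associated cells against 45.7, 61.1 and 33.7 CPM in marrow (log2 fold change -0.94, adjusted p = 0.0081). Interferon response genes had 5 called higher and 5 lower of 24, against the same shares of 15.4% and 13.6%. Cxcl10 was at 7.58, 19.6 and 4.98 CPM in marrow and 28.2, 92.7 and 40.6 CPM in bone-associated cells (log2 fold change 2.38, adjusted p = 0.00103), whereas Mx1, an antiviral GTPase, was at 5.33, 9.05 and 7.82 CPM in bone-associated cells against 28.6, 26 and 26.6 CPM in marrow (log2 fold change -1.90, adjusted p = 0.00197) and Oas2 at 22.4, 71.8 and 55 CPM in marrow and 5.03, 18 and 4.71 CPM in bone-associated cells (log2 fold change -2.55, adjusted p = 0.00219). The interferon counts depended on single mice and on scaling: the 5 higher became 1 without mouse 1 and 2 without mouse 3, the 5 lower became 2 without mouse 3 or young mouse 2 and 3 without young mouse 1, and library totals alone gave 1 higher and 8 lower.

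Markers of other blood cells were present in both sorted fractions. The largest sum of the 19 marker lists was that of secondary granules and mature neutrophils, at 59600, 63020 and 44820 CPM in marrow and 42930, 39710 and 24910 CPM in bone-associated cells, lower in the latter within each mouse. Of that list, 1 of 17 tested members were called higher and 10 lower (median log2 fold change -0.75). S100a9, a subunit of calprotectin, was at 3701, 4777 and 2631 CPM in bone-associated cells against 15000, 13400 and 10420 CPM in marrow (log2 fold change -1.83 ± 0.14 (SE), adjusted p = 0.000127). Camp, the cathelicidin of secondary granules, was at 4617, 3581 and 3278 CPM in marrow and 1319, 1293 and 676 CPM in bone-associated cells (log2 fold change -1.85, adjusted p = 0.000198). Ly6g, the antigen used to gate neutrophils, was at 66.7, 63.1 and 62 CPM in bone-associated cells against 174, 186 and 116 CPM in marrow (log2 fold change -1.28, adjusted p = 0.000983). All marrow libraries were higher for these 3. By contrast Ngp was at 12420, 14640 and 8873 CPM in marrow and 16490, 12610 and 8568 CPM in bone-associated cells and Ltf, lactoferrin, at 10990, 8672 and 5504 CPM in bone-associated cells against 7044, 9732 and 5923 CPM in marrow, with adjusted p of 0.832 and 0.652. Of primary granule and precursor markers, 0 of 9 tested members were called higher and 6 lower (median log2 fold change -2.04). Ms4a3, a marker of granulocyte-monocyte progenitors and their progeny, was at 93.6, 109 and 78.6 CPM in marrow and 14.2, 15.6 and 16.5 CPM in bone-associated cells (log2 fold change -2.59, adjusted p = 0.000261). The 6 called lower became 3 without the mouse block. Mpo, myeloperoxidase, was at 386, 348 and 107 CPM in bone-associated cells against 307, 683 and 458 CPM in marrow (adjusted p = 0.196).

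Eosinophil markers had 1 of 10 called higher and 5 lower, with a median of -2.81. Prg2, the major basic protein, was at 1177, 2511 and 1580 CPM in marrow and 117, 10.7 and 16.9 CPM in bone-associated cells (log2 fold change -6.00 ± 1.03 (SE), adjusted p = 0.00709). Epx, eosinophil peroxidase, was at 2.46, 0 and 4.49 CPM in bone-associated cells against 108, 382 and 182 CPM in marrow (log2 fold change -6.50, adjusted p = 0.0125). Ear6, an eosinophil-associated ribonuclease, was at 15.9, 41.8 and 16.2 CPM in marrow and 0, 0.91 and 0 CPM in bone-associated cells (log2 fold change -7.02, adjusted p = 0.000654). Each marrow library was above every bone-associated library for these 3. The Prg2 call was lost without mouse 3 and with no low-count filter (adjusted p 2.87e-11 to 0.051), and the Epx call with no low-count filter and in limma-voom (adjusted p 1.06e-05 to 0.073). The 5 called lower became 2 with no low-count filter, and the 1 called higher became 0 without mouse 2 or mouse 3. The Ear genes are near-identical and their counts are uncertain. Basophil and mast cell markers were lower in bone-associated cells of mouse 1 and mouse 2 and higher in those of mouse 3, summing to 1429, 5415 and 1169 CPM in marrow and 489, 1943 and 1627 CPM in bone-associated cells. The 0 called lower became 3 without mouse 3.

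Of B cell markers, 0 of 16 tested members were called higher and 7 lower (median log2 fold change -1.06), and the 7 became 4 without mouse 2. Vpreb3, called lower, was at 3.99, 3.09 and 1.08 CPM in bone-associated cells against 28, 40.8 and 10.8 CPM in marrow (log2 fold change -3.27, adjusted p = 0.000349). Cd79b was at 312, 439 and 217 CPM in marrow and 107, 174 and 147 CPM in bone-associated cells (log2 fold change -1.15, adjusted p = 0.00425). Plasma cell markers had 4 of 9 called higher and summed to 1026, 872 and 698 CPM in marrow and 2299, 2499 and 1961 CPM in bone-associated cells. The joining chain gene Jchain was at 1495, 1744 and 1138 CPM in bone-associated cells against 544, 392 and 170.4 CPM in marrow (log2 fold change 2.12, adjusted p = 0.00794) and lost its call with no low-count filter (adjusted p 9.93e-05 to 0.0723 over the alternatives). Immunoglobulin genes together took 2.95 ± 0.207% (SD, n = 3) of counts in bone-associated libraries and 1.11 ± 0.512% in marrow. Of T and NK cell markers, 1 of 15 tested members were called higher and 3 lower (median log2 fold change -1.73), against 15.4% and 13.6% over all genes tested. Gzma, the granzyme A of killer cells, stood at 11.4, 10.3 and 5.23 CPM in marrow and at 0 counts in all bone-associated libraries, at least 234-fold lower against 3 counts over the group. Nkg7 was at 84.1, 108 and 65.1 CPM in marrow and 16.5, 16 and 11.8 CPM in bone-associated cells (log2 fold change -2.52, adjusted p = 9.73e-05), whereas Cd4, which some macrophages also express, was at 32.7, 60.6 and 29.4 CPM in bone-associated cells against 10.3, 20.3 and 6.35 CPM in marrow (log2 fold change 1.81, adjusted p = 0.000509).

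Erythroid markers had 11 of 17 called higher and 0 lower (median 1.25), and the 11 became 7 without mouse 2 or young mouse 1. Klf1, the erythroid Krüppel-like factor, was at 8.37, 5.97 and 3.39 CPM in marrow and 34.1, 42.9 and 26.2 CPM in bone-associated cells (log2 fold change 2.60 ± 0.25 (SE), adjusted p = 0.000314). The most abundant erythroid RNA did not follow: haemoglobin genes took 0.391 ± 0.186% of counts in bone-associated libraries and 0.405 ± 0.266% in marrow (SD, n = 3), and Hbb-bs was not called (adjusted p = 0.899). Haemoglobin genes are near-identical, which makes their single counts uncertain.

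Of osteoclast markers, 9 of 14 tested members were called higher and 0 lower (median log2 fold change 1.43). Ctsk, the collagen-degrading cathepsin K, was at 660.4, 472 and 130.4 CPM in bone-associated cells against 12.8, 20.6 and 2.96 CPM in marrow (log2 fold change 5.22 ± 0.34 (SE), adjusted p = 7.69e-05). Atp6v0d2, a proton pump subunit of osteoclasts, was at 14.9, 16.5 and 10.2 CPM in marrow and 274, 212 and 128 CPM in bone-associated cells (log2 fold change 3.84, adjusted p = 4.99e-05), and the fusion genes Dcstamp and Ocstamp had log2 fold changes of 4.66 ± 0.63 and 4.92 ± 0.63 (SE, adjusted p 0.0013 and 0.00101). Bone-associated libraries were higher in each mouse, with Ctsk lowest in mouse 3. Tnfrsf11a (RANK), the receptor that drives osteoclast formation, was at 95.8, 91.5 and 83.7 CPM in bone-associated cells against 30.3, 24.3 and 35.8 CPM in marrow (log2 fold change 1.60, adjusted p = 0.000309). Acp5, tartrate-resistant acid phosphatase, was at 567, 394 and 933 CPM in marrow and 1003, 715 and 767 CPM in bone-associated cells and was called only without mouse 3 among the alternatives (adjusted p = 0.185, 0.024 to 0.843 over the alternatives). Osteoblast and stromal markers, at 92.8, 104 and 84.9 CPM in marrow and 422, 321 and 425 CPM in bone-associated cells in sum, had 7 of 18 called higher and 0 lower, which became 4 higher without mouse 1 or mouse 3. Spp1, given above, is in that sum. Col1a2, a collagen I chain, was at 22.2, 13.6 and 9.38 CPM in bone-associated cells against 1.76, 2.01 and 0.529 CPM in marrow (log2 fold change 3.48, adjusted p = 0.000309). Of endothelial markers, 3 of 13 tested members were called higher and 0 lower (median log2 fold change 1.32), against 15.4% and 13.6% over all genes tested. They were led by Plvap at 0.277, 0.585 and 0.529 CPM in marrow and 17.9, 2.69 and 13.2 CPM in bone-associated cells (log2 fold change 4.30, adjusted p = 0.00312). The endothelial median was 0.87 without mouse 1 and 0.51 without mouse 3. The part of these cell types in the differences described above was not tested.

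**Figure D3:**
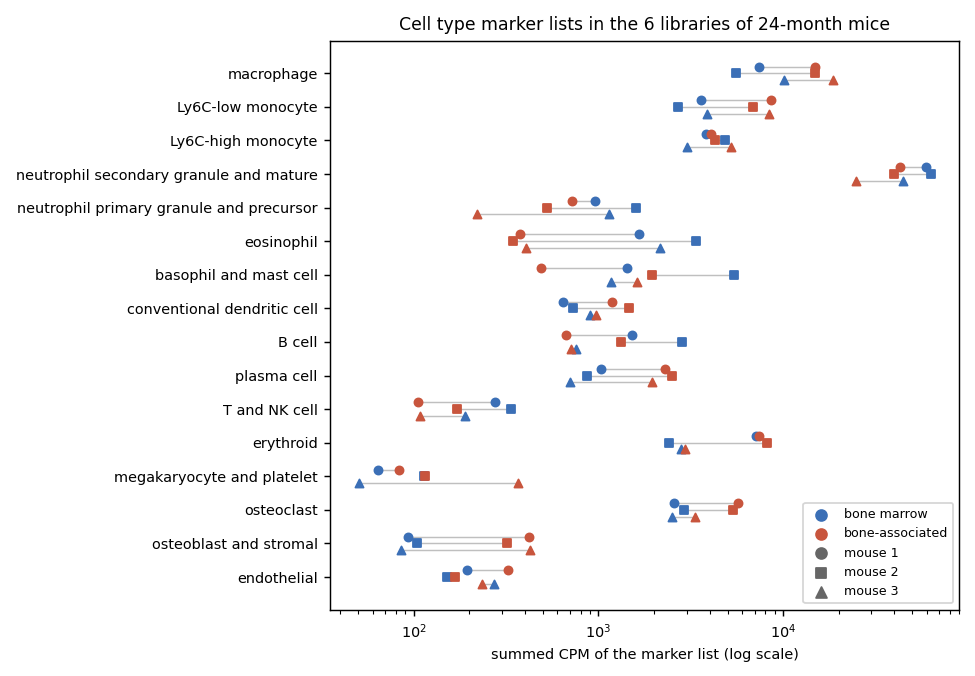
Summed CPM (log axis) of 16 cell type marker lists in the 6 libraries at 24 months, marrow in blue and bone-associated in red, with 1 symbol per mouse and a line joining the libraries of a mouse. Macrophage, Ly6C-low monocyte, osteoclast, plasma cell and osteoblast and stromal sums were higher and mature neutrophil and eosinophil sums lower in bone-associated cells of all 3 mice, while the direction of the basophil and mast cell sum depended on the mouse.

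A further set, chosen after its values were seen, was long non-coding RNA. Malat1, an abundant RNA of nuclear speckles, was at 424, 737 and 575 CPM in bone-associated cells against 2695, 1746 and 3689 CPM in marrow (log2 fold change -2.21 ± 0.28 (SE), adjusted p = 0.00104). Neat1, the scaffold of paraspeckles, was at 427, 229 and 510 CPM in marrow and 19.1, 37.8 and 26.2 CPM in bone-associated cells (log2 fold change -3.80, adjusted p = 0.000468). Xist was at 55.2, 69.8 and 78 CPM in bone-associated cells against 350.3, 228 and 479 CPM in marrow (log2 fold change -2.33, adjusted p = 0.000938). Marrow libraries were the higher ones for all 3 in every mouse. Malat1 and Neat1 were also lower in bone-associated cells at 3 months (log2 fold change -2.17 and -2.75, adjusted p 0.00114 and 0.00167). Among genes annotated as lincRNA in GENCODE M21 with at least 5 CPM at a site, 29 of 59 were called lower (49.2%) and 2 higher. Of 10012 protein-coding genes at that level, 16.8% were called lower and 23.6% higher. A gene could reach that level through either site alone, so the set depends on the same values that made the calls. With no level set, 61 of 384 lincRNA genes were called lower (15.9%) and 2 higher. Of 13157 protein-coding genes, 14% were then lower and 18.4% higher, so the lower shares were close. The medians were not: the median log2 fold change was -2.04 for lincRNA and -0.07 for protein-coding genes. Low medians were not particular to lincRNA. They were -1.89 for antisense genes, -1.75 for processed transcripts, -3.24 for snoRNA and -0.54 for processed pseudogenes. The following 3 genes were also chosen after their values were seen. Kmt2a, a histone methyltransferase, was at 144, 104 and 188 CPM in marrow and 18.1, 16.4 and 14.8 CPM in bone-associated cells (log2 fold change -3.11, adjusted p = 0.000224). Macf1, a giant cytoskeletal linker, was at 46.4, 41.5 and 46.3 CPM in bone-associated cells against 269, 213 and 290.5 CPM in marrow (log2 fold change -2.52, adjusted p = 2.53e-05). Gas5, a non-coding host gene of small nucleolar RNAs, was at 114, 95.8 and 127 CPM in marrow and 30, 33 and 19.2 CPM in bone-associated cells (log2 fold change -2.06, adjusted p = 0.000504). In the same libraries the number of genes with a count was lower in bone-associated cells, as given above, and its part in these values was not tested.

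The site comparison at 3 months gave 3984 calls (24.6%), 2291 higher (14.1%) and 1693 lower (10.4%). Of the 24-month calls, 2721 were also called in the same direction at 3 months, which is 57.8% of the calls at 24 months and 68.3% of those at 3 months. Across all tested genes the log2 fold changes at the 2 ages had a Pearson r of 0.599 and a Spearman coefficient of 0.686, which describe genes and carry no test. Csf1r, for example, had a log2 fold change of 2.30 ± 0.11 at 3 months, Cd14 of 4.78 ± 0.19 and Slfn4 of -3.99 ± 0.28 (SE). Ctsk had 3.10 ± 0.30, Lyve1 3.44 ± 0.55 and Cd74 0.90 ± 0.25, all in the same direction as at 24 months.

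The difference between the 2 site effects was itself tested, and 57 genes (0.352%) were called, 32 with a more positive site effect at 24 months (0.197%) and 25 with a more negative one (0.154%), with 2108 genes at an unadjusted p below 0.05. The count of 57 was sensitive to single mice: it became 23 without mouse 1, 71 without mouse 2, 25 without mouse 3, and 5, 8 and 5 without young mice 1, 2 and 3. It was 45 without the mouse block, and 22 of the 57 were among those. Because the mice differed in sex by their RNA, the difference in age and the difference in sex cannot be told apart for these genes.

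Ccr7 and Flt3 kept their call in all 6 analyses that left out 1 mouse. Ccr7 was at 28.9, 26.9 and 18.2 CPM in marrow and 79.5, 60.4 and 45.7 CPM in bone-associated cells of young mice, so that its site difference was larger by 2.17 ± 0.17 (SE, log2) at 24 months (adjusted p = 0.00435). Flt3, a receptor of progenitors and dendritic cells, was at 61.9, 67 and 27.7 CPM in bone-associated cells against 28.3, 43.2 and 14.2 CPM in marrow at 24 months but at 93.2, 135 and 136 CPM in marrow and 23.9, 23.5 and 29.7 CPM in bone-associated cells at 3 months, a difference of 3.14 ± 0.23 (adjusted p = 0.00435). The site effect was thus positive in the older and negative in the younger mice, although the libraries overlapped at 24 months and the call there was lost without the mouse block (adjusted p 5.98e-06 to 0.0956 over the alternatives). Jchain was at 27, 3.43 and 32.6 CPM in marrow and 0.16, 0.548 and 1.13 CPM in bone-associated cells at 3 months, the reverse of its order at 24 months, with a difference of 7.15 ± 0.76 (adjusted p = 0.0172). This call held in 4 of the 6 analyses that left out a mouse. Nr4a2 differed by 2.52 ± 0.23 (adjusted p = 0.0091) and Fcgr4 by -2.46 ± 0.22 (adjusted p = 0.00854). Fcgr4 was at 73.6, 46.9 and 65.4 CPM in marrow and 123, 128 and 164 CPM in bone-associated cells of young mice, so its order too was reversed. Both of these calls held in 4 of the 6 such analyses.

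The genes with the most positive difference also included Dtx1, Ifi205, Lax1 and Fgfr1. Dtx1, a Notch pathway ligase, was at 11.6, 25.3 and 6.44 CPM in marrow and 14.1, 14.1 and 8.49 CPM in bone-associated cells at 24 months and at 8.02, 7.67 and 7.95 CPM in marrow and 0.24, 0.0548 and 0.0363 CPM in bone-associated cells at 3 months. Fgfr1, a fibroblast growth factor receptor, was at 9.35, 22.3 and 35.8 CPM in bone-associated cells against 0.623, 1.42 and 0.653 CPM in marrow at 24 months and at 5.21, 7.36 and 9.27 and 9.73, 9.16 and 11.3 CPM at 3 months. For Dtx1 the sites overlapped only in the older mice, and for Fgfr1 they were apart in the older mice. Among the most negative, Il10, an anti-inflammatory cytokine, was at 22, 13.3 and 26.4 CPM in marrow and 32.7, 22.5 and 35.8 CPM in bone-associated cells at 24 months and at 2.03, 0.593 and 1.7 CPM in marrow and 19.2, 17.5 and 22.3 CPM in bone-associated cells at 3 months. Alas2, the erythroid enzyme of haem synthesis, was at 399, 428 and 153 CPM in bone-associated cells against 266, 104 and 78.9 CPM in marrow at 24 months and at 61.2, 46.2 and 37.5 CPM in marrow and 1114, 633 and 1411 CPM at 3 months. In both the site difference was larger at 3 months than at 24 months, where the sites overlapped, and each held its call in 1 of the 6 analyses that left out a mouse. The site call of Alas2 at 24 months was lost without mouse 2, mouse 3 or young mouse 1, without the mouse block, in the fit of only the 6 libraries, on library totals alone and with no low-count filter (adjusted p 0.000393 to 0.113).

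**Figure D4:**
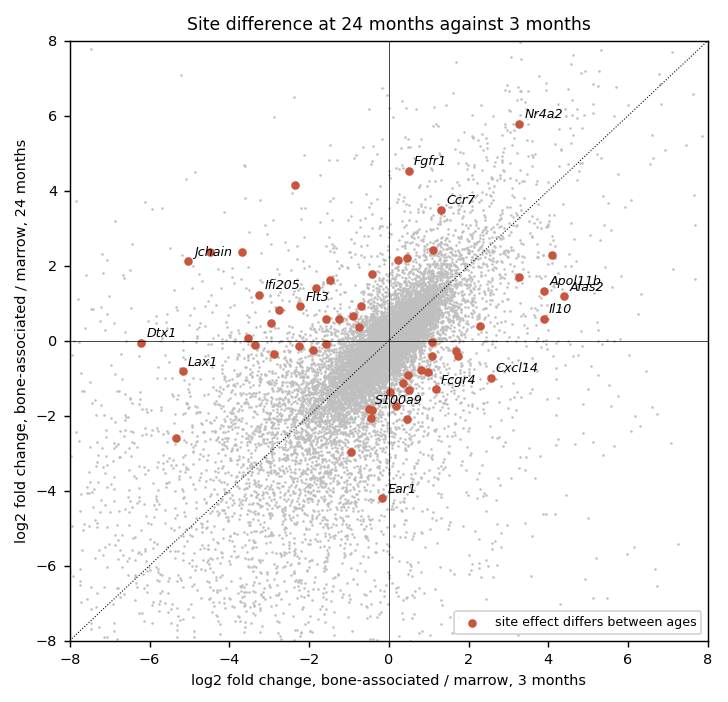
Log2 fold change of bone-associated over marrow at 24 months (vertical) against 3 months (horizontal) for each tested gene. Genes whose site effect differed between the ages are in red and the line of equal effects is dotted. Beyond the axes 152 genes are not drawn, among them Gm4759, 1 of the 57 genes whose site effect differed. Ccr7, Fgfr1 and Nr4a2 lie above the line, Ear1, Cxcl14 and Fcgr4 below it, and Jchain and Flt3 where the signs are opposite.

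The 3 mice aged 24 months were alike in most but not all genes. Over 8892 genes with at least 10 CPM, the log2 ratio of the sites (on CPM + 1) had a Pearson r of 0.771 between mouse 1 and mouse 2, 0.756 between mouse 1 and mouse 3 and 0.743 between mouse 2 and mouse 3. Mouse 3 had the widest spread of ratios, with an SD of 1.15 against 0.999 and 0.972, and 375 genes at least 4-fold higher and 295 at least 4-fold lower. Among genes with a mean of at least 50 CPM, the ratio ranged most for Prss34, a basophil protease, at 734, 2788 and 564 CPM in marrow and 3.65, 589 and 687 CPM in bone-associated cells. Mcpt8, another basophil protease, was at 6.07, 307 and 206 CPM in bone-associated cells against 237, 1313 and 154 CPM in marrow, and Fcer1a, the IgE receptor chain, at 69.9, 210.5 and 43.8 CPM in marrow and 2.46, 42 and 50.7 CPM in bone-associated cells. For all 3 the direction differed between mouse 3 and the others, and none was called (adjusted p 0.293, 0.232 and 0.103). Fcer1a was called without mouse 3, by DESeq2 and by limma-voom (adjusted p 0.0119 to 0.346 over the alternatives), and DESeq2 called Prss34 (0.0415 to 0.571). Mmp12, macrophage elastase, was at 2.98, 1.41 and 343 CPM in bone-associated cells against 2.63, 1.46 and 2.27 CPM in marrow, so that its level rested on the bone-associated library of mouse 3 (adjusted p = 0.38, 0.00122 to 0.971 over the alternatives, with calls without the mouse block and in limma-voom). Tppp3, a tubulin-binding protein, was at 20.9, 7.81 and 8.06 CPM in marrow and 79, 163 and 764 CPM in bone-associated cells (log2 fold change 4.29, adjusted p = 0.0149), highest in mouse 3, with a call that was lost without mouse 2, in the fit of only the 6 libraries and with no low-count filter (adjusted p 3.02e-06 to 0.0939 over the alternatives).

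**Figure D5:**
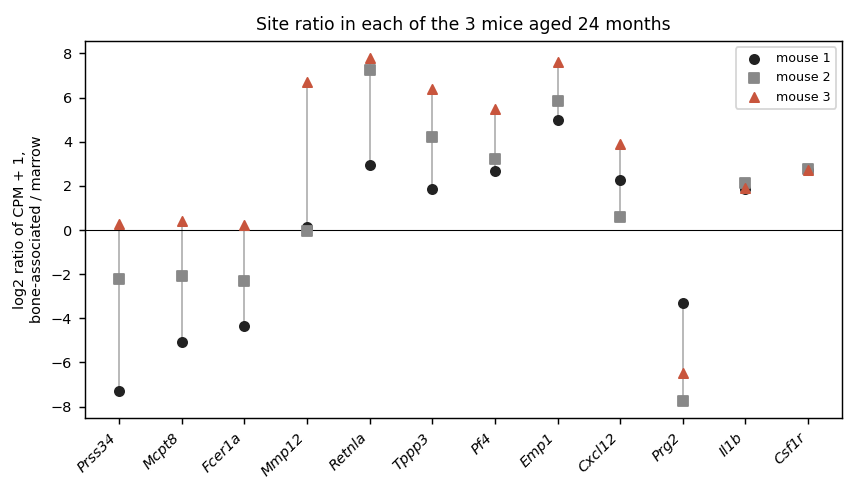
Log2 ratio of bone-associated over marrow CPM + 1 in each of the 3 mice aged 24 months for 12 genes. Prss34, Mcpt8 and Fcer1a are negative in mouse 1 and mouse 2 and slightly positive in mouse 3, Mmp12 is positive in mouse 3 and close to 0 in the others, and Il1b and Csf1r are nearly the same in all 3.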

How the data were processed

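RNA was sequenced from sorted cells after SMART-Seq v4 cDNA synthesis and Nextera XT library making, per the labels' protocols. The deposited values are raw read counts per gene symbol. Per the submitters' processing notes, Trimmomatic 0.32, STAR 2.4.2a and HTSeq 0.6.1 were used with build GRCm38.p4. No source used here names the annotation or the strand setting, so a gene and its antisense partner cannot be told apart. Of the genes listed, 17563 had no count in any library.

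All 12 libraries entered 1 edgeR 4.0.16 fit (R 4.3.3, limma 3.58.1; filterByExpr, TMM, robust quasi-likelihood, 4 residual degrees of freedom) with a term per mouse and a site effect per age. Benjamini-Hochberg adjustment ran over all 16209 genes. An adjusted p below 0.05 was a call. The spread is thus shared between ages. Mice are described as individual animals, so n counts animals. The title of the marrow library of mouse 2 carries a suffix, R, whose meaning is not given.

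The sites were paired by the mouse code in the titles. Deviations from group means, over genes with at least 5 CPM, correlated between libraries of 1 mouse at r = 0.293, 0.338 and 0.228 at 24 months and at 0.0887, 0.0741 and 0.0686 at 3 months, and at 0.00482 or less between mice. Deviations within a group of 3 sum to 0, so positive values within a mouse push those between mice down. The values between mice are thus not an independent reference. Replicates differed beyond counting noise (chi-square per degree of freedom from 63.9 to 164).

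Members and gene lists were chosen with earlier results of these data known, so the counts per list are not independent support. There were 49 lists of 816 symbols, 814 of which are in the table. Named were the 8 highest and 8 lowest called genes with at least 10 CPM and 1 direction in 3 mice, up to 4 called genes with the smallest p per list, 25 key genes, 5 genes per direction of the age difference and the 6 with the widest spread. Predicted, pseudogene and immunoglobulin segments were left out. Other list members were named after their values were seen, mostly to show members that did not pass. Some genes are not reported here. With 0 counts in a group, folds use a floor of 3 counts over the group, for counting error only. GENCODE M21 matched 15349 tested symbols once. The scripts were tested on simulated counts.

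Alternatives were no mouse block, only the 6 libraries, other scaling or filters, DESeq2 1.42.0, limma-voom, no immunoglobulin and haemoglobin genes, and each mouse left out.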

Additional observations from a re-analysis of the deposited data

Results flagged for a closer look

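The site effect at 24 months minus that at 3 months was tested for every gene, and these named genes passed. Sex by RNA differed with age, so age and sex cannot be told apart for any of them. A more positive site effect at 24 months was found for Jchain, with a log2 difference of 7.15 and adjusted p from 0.0239 to 0.157 when 1 mouse was left out. Dtx1 differed by 6.15 (0.0328 to 0.0933). Ifi205, an interferon-inducible gene, differed by 4.46 (0.0155 to 0.0606). Lax1, an adaptor of lymphocytes, differed by 4.36 (0.0566 to 0.141), so that its call was lost in each such analysis. Fgfr1 differed by 4.03 (0.0495 to 0.162). Flt3 differed by 3.14 (0.0109 to 0.0249), Nr4a2 by 2.52 (0.0154 to 0.0509) and Ccr7 by 2.17 (0.0122 to 0.0249).

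A more negative site effect was found for Ear1, at -4.03 (0.0351 to 0.149), which fell from 9.93, 28.8 and 9.34 CPM in marrow to 0.708, 1.87 and 0.286 CPM in bone-associated cells at 24 months and was at 10.4, 14.1 and 27.1 and 11.5, 8.12 and 29.5 CPM at 3 months. Cxcl14, a chemokine, differed by -3.54 (0.0522 to 0.156), and its call too was lost in each such analysis. Il10 differed by -3.30 (0.0476 to 0.149), Alas2 by -3.21 (0.0254 to 0.149) and Apol11b by -2.57 (0.0209 to 0.162). Fcgr4 differed by -2.46 (0.0172 to 0.0539). The neutrophil genes S100a9 and Camp differed by -1.35 (0.0254 to 0.17) and -1.43 (0.0328 to 0.187): S100a9 was at 12320, 11790 and 9453 CPM in marrow and 8180, 7895 and 7776 CPM in bone-associated cells at 3 months, a smaller fall than at 24 months.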

How the results depend on the processing

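Site calls at 24 months numbered 4708, and 3236 to 4063 when 1 of the 6 mice was left out. Without the replicate block there were 5419, of which 4389 were shared with the blocked fit, and with only the 6 libraries of that age 3008, where fewer samples estimate the spread. The 3984 calls at 3 months became 1861 to 4573 on leaving out a mouse and 4523 without the block. The 57 genes whose effect differed between ages became 5 to 71 on leaving out a mouse, 45 without the block, 123 with no low-count filter, 156 at 5 CPM in 3 libraries, 930 with DESeq2, 150 with limma-voom and 86 without immunoglobulin and haemoglobin genes. The cause of these changes was not tested. At 24 months DESeq2 called 6619, limma-voom 5767, library totals alone 5740 (23.7% higher), median-of-ratios factors 4728, the stricter filter 4755 and no filter 4089. No shared call changed sign. Of 233 named genes called at 24 months, 189 kept direction and call under each alternative that tested them. Counting error limits most the genes with few counts, such as those at 0 at a site.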

Other observations

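The marker lists not described above gave the following values, to be read beside 15.4% called higher and 13.6% called lower over all genes tested. Of adipocyte markers, 2 of 4 tested were called higher and 1 lower at 24 months (median log2 fold change -0.19), with sums of 414, 267 and 527 CPM in marrow and 323, 243 and 369 CPM in bone-associated cells. Adipoq, the hormone adiponectin, was at 7.19, 3.69 and 22.7 CPM in bone-associated cells against 0.934, 0.877 and 0.436 CPM in marrow (log2 fold change 3.49, adjusted p = 0.0133), higher in each mouse. The adipocyte median turned to 1.11 without mouse 1, where 1 was called higher, and to 0.94 without mouse 2. The member called lower, Fabp4, lost its call without mouse 1 or mouse 3 (adjusted p 0.000565 to 0.0871 over the alternatives). Of plasmacytoid dendritic cell markers, 1 of 10 tested were called higher and 0 lower at 24 months (median log2 fold change -0.15), with sums of 476, 755 and 400.2 CPM in marrow and 537, 764 and 627 CPM in bone-associated cells. The 1 call became 0 without mouse 1 and 2 without mouse 2, and the median was 0.22 without mouse 3. Of stem and progenitor markers, 2 of 13 tested were called higher and 1 lower at 24 months (median log2 fold change -0.43), with sums of 258, 460.1 and 137 CPM in marrow and 248, 403 and 237 CPM in bone-associated cells. That median was -0.09 without mouse 1 or mouse 2, each with 1 called higher, and -0.73 without mouse 3, and DESeq2 called 2 higher and 5 lower. Of conventional dendritic cell markers, 6 of 11 tested were called higher and 1 lower. They included Clec10a, a lectin shared with alternatively activated macrophages, at 21.1, 30.04 and 7.41 CPM in marrow and 75.7, 103 and 63.7 CPM in bone-associated cells (log2 fold change 2.23, adjusted p = 0.00219).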
